A study of Mus musculus with 6 samples.

Results

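The solute carriers described here are 185 protein-coding genes that make membrane transporters, measured in 6 single mouse blastocysts. They were taken by name. Every protein-coding gene of the GENCODE M21 annotation whose symbol reads Slc, a family number, a and a member number was kept, except Slc2a1, Slc2a3, Slc16a1 and Slc38a4. The annotation holds 330 such genes, of which 185 were among the 12149 genes of the deposited table; the other 145 were not analysed here. The 185 genes belong to 45 families. Against them stand 10962 other protein-coding genes of the table.

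Each embryo was a blastocyst of age E3.5 on the C57BL/6 background. All 6 had been injected as zygotes with small RNAs isolated from mouse sperm at 2 ng/µl, grown in culture and collected about 96 h later. The sperm came from normal males for the 3 control embryos (Ctl 1 to 3) and from males with stress-induced depression for the 3 others (Dep 1 to 3). Embryos that received no injection are not among the samples, so both groups share the injection and the culture media. Whether any embryos were littermates or were injected on the same day, and how many males gave sperm, is not in the labels. The p-values below therefore measure the spread between these embryos, which may be technical. In a whole embryo, fewer cells of a type and less RNA per cell cannot be told apart.

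Solute carriers move small molecules across membranes without hydrolysing ATP, either by letting a substrate run down its gradient or by coupling it to sodium, protons or a counter-substrate. The early embryo takes up amino acids, glucose, pyruvate, phosphate, vitamins and metals through them, and the trophectoderm, its outer epithelium, uses sodium-coupled transport when it pumps fluid into the blastocyst cavity. One family, Slc25, sits mostly in the inner mitochondrial membrane and exchanges nucleotides, phosphate, carboxylic acids and amino acids between the matrix and the cytosol. Other families work in the Golgi apparatus, which needs nucleotide sugars, and in vesicles and lysosomes.

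The most abundant carrier messages of these embryos were those of a pair of near relatives, Slc25a5 and Slc25a4, which both encode adenine nucleotide translocases. These exchange ADP and ATP across the inner mitochondrial membrane. The start of their coding sequences is shown because it lets a reader judge how far reads from each gene can be told apart. The sequences are the first 150 coding bases from the GENCODE M21 transcripts on GRCm38, 5′ to 3′, and capitals mark the 32 bases at which the pair differs.
Slc25a5: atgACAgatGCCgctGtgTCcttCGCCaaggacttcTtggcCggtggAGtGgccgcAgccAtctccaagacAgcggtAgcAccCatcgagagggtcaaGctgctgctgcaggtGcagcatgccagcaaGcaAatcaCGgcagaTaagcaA
Slc25a4: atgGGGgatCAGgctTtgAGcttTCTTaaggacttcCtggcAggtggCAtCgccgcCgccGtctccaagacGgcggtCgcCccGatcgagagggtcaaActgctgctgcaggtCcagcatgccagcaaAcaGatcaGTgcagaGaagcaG
The stretch of Slc25a5 lies on the plus strand at chrX:36795731-36796881 and that of Slc25a4 on the minus strand at chr8:46209470-46210922, each spread over 2 exons. Over the whole coding sequence of 894 bases, 692 bases were identical (77.4%), and the longest run without a difference was 20 bases. No stretch of 50 bases was shared by the pair. Slc25a5 did share 46.6% of its 50-base words with 9 other genes, among them the gene models Gm5560, Gm5529 and Gm5256, so its level is uncertain where the counting could split reads between such copies.

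The libraries held between 16543356 and 21548220 reads in listed genes. The carriers took from 0.789% of these reads in Dep 1 to 1.04% in Dep 3. Their share was 0.899% ± 0.0681 for the Ctl embryos and 0.919% ± 0.125 for the Dep embryos (SD, n = 3 each). A two-sided exact permutation test gave p = 1, and the smallest p that 3 against 3 can give is 0.1. All 8 markers of trophectoderm, all 8 of epiblast and all 8 of primitive endoderm were listed, while the table listed 1 of 8 cumulus and granulosa markers, 1 of 6 sperm markers, none of 6 blood markers and none of 5 fibroblast markers. The summed FPKM of the primitive endoderm markers was 169.9 in Dep 1, within the 161 to 210.4 of the other embryos. That sum was mostly Dab2, with a mean of 112 FPKM, and Dab2 was highest in Dep 1. Of the other markers, Sox17, Gata4 and Sox7 were at 0 in Dep 1, and Gata4 also in Ctl 3. Gata6 and Col4a1 were lowest in Dep 1, while Pdgfra was lowest in Ctl 3 and Lama1 in Ctl 1. Ctl 3 was also low for Sox17 (0.883 normalized counts) and Sox7 (9.71 normalized counts). The trophectoderm sum was 2719 in Dep 1, above the 1192 to 1963 of the other embryos. It was mostly Krt18 and Krt8, with means of 858 and 617 FPKM. Both were highest in Dep 1, as were Cdx2, Gata3 and Eomes. Tfap2c was lowest in Dep 1, and Elf5 and Tead4 lay within the range of the other embryos. The epiblast sum was 267 in Dep 1, below the 278 to 413 of the others. Zfp42, the epiblast marker of highest mean at 124 FPKM, was highest in Dep 1, and Pou5f1 lay within the range of the others. The remaining epiblast markers were lowest in Dep 1. The library of Dep 1 stood apart. In it, 691 listed genes (5.69%) had no read there, against 5 to 106 in the other embryos, so counts below are also given without it.

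Levels of different genes are compared in FPKM, in which reads are scaled to the length of a gene's annotated exons and to the reads in listed genes. The median carrier had a mean of 3.31 FPKM over the 6 embryos. Of the 185 carriers, 5 had a mean of 100 FPKM or more, 40 of 10 or more, and 30 lay under 1. In single embryos, 124 to 158 carriers reached 1 FPKM and 36 to 52 reached 10, with Dep 1 lowest and Dep 3 highest in both counts. The 5 highest carriers took from 36.4% to 50.4% of the summed carrier FPKM of an embryo, and the 20 highest from 63.8% to 75.0%.

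Mitochondrial carriers held the first 4 places. Slc25a5 had 561, 486 and 251 (Ctl 1 to 3) and 503, 560.2 and 312 (Dep 1 to 3) FPKM. It was first in all 6 embryos, and its lowest values, in Ctl 3 and Dep 3, came one from each group. Slc25a4 had 244, 316 and 214 (Ctl 1 to 3) and 293, 292 and 186 (Dep 1 to 3) FPKM. It was second in 5 embryos, and Slc6a8 was second in Dep 3. The FPKM ratio of Slc25a5 to Slc25a4 was 1.67 ± 0.573 for the Ctl embryos and 1.77 ± 0.129 for the Dep embryos (SD, n = 3 each; p = 0.8 by the exact permutation test). Slc25a39, which carries glutathione into mitochondria, had 97.7, 189 and 138 (Ctl 1 to 3) and 135, 175 and 186 (Dep 1 to 3) FPKM. Slc25a3, the mitochondrial phosphate carrier that supplies ATP synthase, had 119, 112 and 86.4 (Ctl 1 to 3) and 135, 121 and 83.6 (Dep 1 to 3) FPKM. The groups overlapped for all 4 of these genes.

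Further down, the mitochondrial carriers among the 20 highest were Slc25a11, which exchanges oxoglutarate for malate, with a mean of 64.9 ± 21.3 FPKM (SD over 6 embryos), and Slc25a10, the dicarboxylate carrier, with 29.7 ± 7.89 FPKM. Slc25a17, a member of the same family that works in peroxisomes, had 24.9 ± 3.19 FPKM. Together the 39 listed Slc25 genes made up 43.7% to 59.4% of the summed carrier FPKM, with 51.0% ± 4.54 for the Ctl embryos and 53.4% ± 8.44 for the Dep embryos (SD, n = 3 each; p = 0.6 by the exact permutation test). The lowest share was in Dep 3 and the highest in Dep 1, both of the same group.

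**Figure D1:**
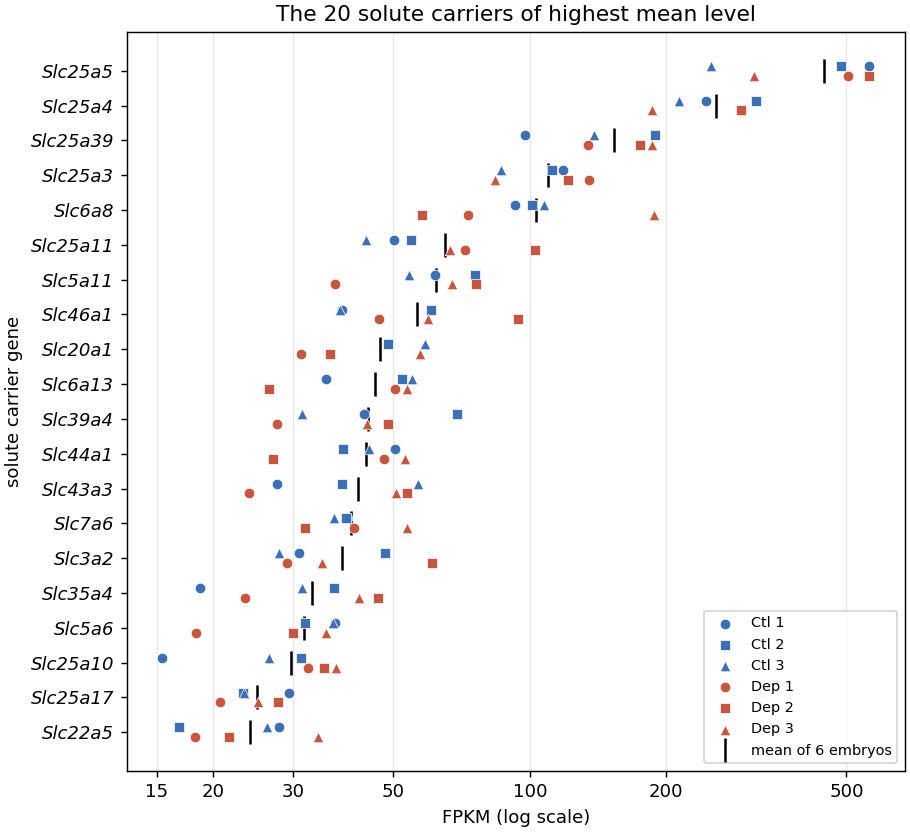
FPKM on a log axis of the 20 solute carriers of highest mean level, with 1 point per embryo (blue, Ctl 1 to 3; red, Dep 1 to 3) and a black tick at the mean of 6 embryos. Slc25a5 lies at the top with 251 to 561 FPKM, and the control and Dep points of each of the first 5 genes intermingle.

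Carriers of the plasma membrane filled most of the remaining places. The highest was Slc6a8, the sodium-coupled creatine transporter, with 92.6, 101 and 107 (Ctl 1 to 3) and 72.9, 57.9 and 188 (Dep 1 to 3) FPKM. Its Dep values held both the lowest and the highest of the 6. Slc6a13, which takes up GABA and taurine, had a mean of 45.5 ± 11.7 FPKM. For amino acid exchange the list held both chains of 1 heteromeric transporter, Slc7a6 with 40.4 ± 7.22 FPKM and Slc3a2, the heavy chain that brings light chains of the Slc7 family to the cell surface, with 38.6 ± 13.1 FPKM. Slc43a3, placed with the amino acid carriers by its family although it is known as a carrier of purine bases, had 41.8 ± 13.9 FPKM.

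Vitamin, lipid precursor and ion uptake were each represented by 1 or 2 abundant messages. Slc46a1, the proton-coupled folate transporter, had 56.2 ± 21.002 FPKM and Slc5a6, which takes up biotin and pantothenate with sodium, 31.7 ± 7.09 FPKM. Slc5a11, a sodium-coupled carrier of myo-inositol, had 62.1 ± 14.8 FPKM. Slc44a1, a choline transporter, stood at 43.5 ± 9.47 FPKM and Slc22a5, the carnitine transporter, at 24.2 ± 6.495 FPKM. Slc20a1, a sodium-phosphate cotransporter, had 46.8 ± 11.1 FPKM, and Slc39a4, a zinc importer, 43.9 ± 14.7 FPKM. The remaining one of the 20 was Slc35a4, of the nucleotide sugar carrier family, with 33.1 ± 10.7 FPKM.

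Part of this order depends on the gene length. With the longest protein-coding transcript in place of all annotated exons, a choice added after the data were seen, 18 of the 20 stayed among the first 20, and the first 5 became Slc25a5, Slc25a3, Slc25a4, Slc25a39 and Slc6a8, with Slc25a3 at 377 FPKM. Some levels also carry a limit of sequence. Slc22a5 shared 27.1% of its 50-base words with Slc22a21, Slc22a4 and Gm12220, Slc35a4 shared 14.04% with Gm5866, and Slc5a6 shared 13.97% with Gm6157 and Gm9415. The library kit does not mark strand, and Slc25a11, Slc35a4 and Slc5a6 overlap the protein-coding genes Rnf167, Apbb3 and Atraid, whose reads may be counted with theirs.

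The carriers were grouped by family into 8 classes. The mitochondrial class held 39 genes, of which 15 had a mean of 10 FPKM or more. Amino acid and peptide carriers (31 genes) made up 11.9% to 19.3% of the summed carrier FPKM of an embryo, and the 35 carriers of monocarboxylates, nucleosides, lipids and organic ions 5.68% to 8.85%. The 25 metal carriers took 5.55% to 7.86%, led by Slc39a4, the copper importer Slc31a1 (18.7 FPKM) and Slc30a6 of the zinc transporter family (15.99 FPKM). The 26 carriers of inorganic ions took 4.35% to 7.70%, led by Slc20a1, the sodium-phosphate cotransporter Slc34a2 (20.4 FPKM) and Slc4a11 (9.27 FPKM). Sugar and polyol carriers (9 genes), led by Slc5a11, Slc2a8 and Slc5a6, which is here by its family, took 3.42% to 6.50%. The 10 carriers of nucleotide sugars, sugar phosphates and acetyl-CoA took 2.73% to 3.98%, led by Slc35a4, the CMP-sialic acid transporter Slc35a1 (10.9 FPKM) and the acetyl-CoA transporter Slc33a1 (9.65 FPKM). The 10 vitamin and cofactor carriers took 2.40% to 4.42%, led by Slc46a1, the thiamine transporter Slc19a2 (6.399 FPKM) and the riboflavin transporter Slc52a3 (5.66 FPKM). In the monocarboxylate and organic ion class the highest were Slc44a1, Slc22a5 and Slc44a4 (17.7 FPKM).

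Dep embryos were set against Ctl embryos to see whether sperm small RNAs of stressed males went with other levels of these messages. No carrier passed the test. With limma on log2(normalized count + 1) over all 12149 listed genes and Benjamini-Hochberg adjustment, 0 of 185 carriers had an adjusted p under 0.05 (lowest 0.9997), beside 0 of all genes (0%). edgeR and DESeq2 on recovered reads also called 0 carriers, and of all genes 0 and 1 (0.00823%). At an unadjusted p under 0.05, limma gave 7 carriers (3.78%), where all listed genes gave 1.85%. Of these, 2 had higher values in Dep (0.831% of all genes) and 5 lower values (1.02% of all genes). edgeR gave 8 carriers beside 1.74% of all genes, and DESeq2 gave 9 beside 2.30%. With the replicate number as a block, limma gave 9 carriers beside 3.46% of all genes.

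That number rested on single embryos. It was 1 (0.541%) without Ctl 1, 2 (1.08%) without Ctl 3 and 15 (8.11%) without Dep 1, where 1.004%, 1.13% and 3.90% of all genes passed. Without Ctl 2, Dep 2 or Dep 3 it was 9 (4.86%), 7 (3.78%) and 9 (4.86%), beside 1.88%, 2.87% and 4.74% of all genes. In the 6 embryos, 78 carriers had a higher mean log2 level in Dep and 107 a lower one, with a median log2 fold of -0.11 beside -0.02 for all genes. The sign of this median was not stable: it was 0.04 with edgeR and with DESeq2, which placed 101 carriers higher and 84 lower, 0.03 with library weights, which placed 98 higher, and 0.11 without Dep 1, with 108 higher. The share of all genes that were higher was 48.2% in limma and 53.5% in edgeR.

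**Figure D2:**
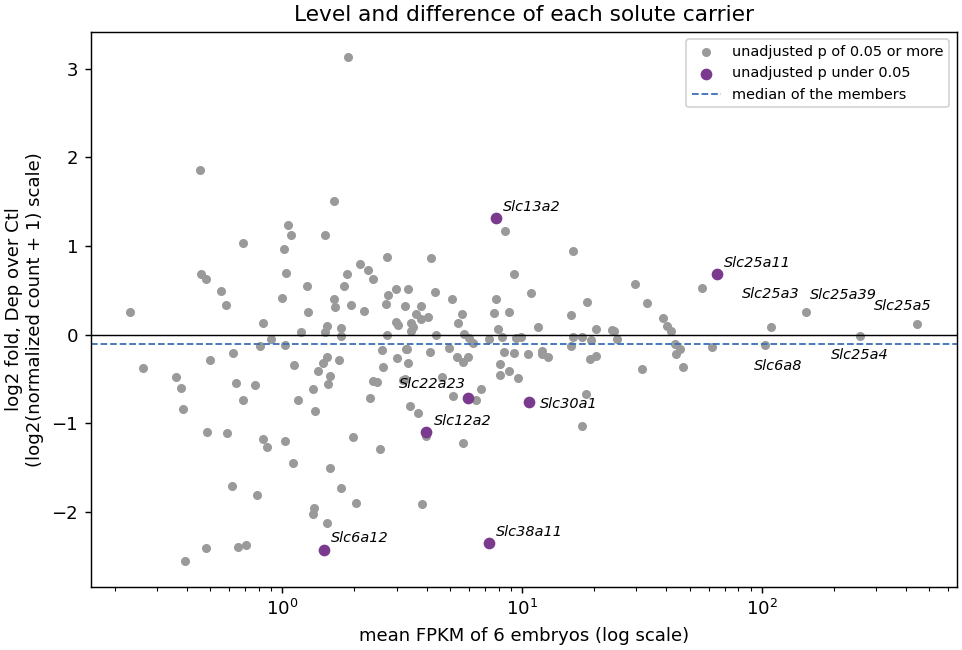
Log2 fold of Dep over Ctl on the log2(normalized count + 1) scale against the mean FPKM of 6 embryos (log axis), 1 point per solute carrier. Purple points are the 7 carriers at an unadjusted p under 0.05, and the dashed line is the median of the 185 at -0.11. The 5 carriers of highest level have log2 folds from -0.11 to 0.26, and the widest differences lie among carriers of low level.

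A second description counts carriers whose 3 Dep values all lay above or all below the 3 Ctl values. There were 18 such carriers (9.73%), where 6.90% of all genes did not overlap. In 10 the Dep values were higher (3.09% of all genes) and in 8 lower (3.80% of all genes). Without Dep 1, an alternative chosen after the data were seen, 50 carriers did not overlap (27.0%), beside 19.4% of all genes, with 33 higher in Dep (9.47% of all genes) and 17 lower (9.90% of all genes). The higher ones in 6 embryos were Slc25a11, Slc25a10, Slc25a51, Slc31a1, Slc35a1, Slc37a4, Slc16a5, Slc36a3, Slc5a10 and Slc12a9. The lower ones were Slc30a1, Slc30a2, Slc30a5, Slc38a11, Slc12a2, Slc6a12, Slc22a23 and Slc18a2.

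The lowest unadjusted p among the carriers was that of Slc38a11, a relative of the sodium-coupled neutral amino acid transporters (chromosome 2, 65316430 to 65364034, GRCm38). Its normalized counts were 1271, 681 and 771 (Ctl 1 to 3) and 153, 63.6 and 511 (Dep 1 to 3). Every Dep embryo lay below every Ctl embryo, and the lowest was Dep 2. The means were 908 ± 318 for the Ctl embryos and 243 ± 237 for the Dep embryos (SD, n = 3 each). The log2 fold was -2.35 ± 0.66 (SE), with an unadjusted limma p of 0.00484 and an adjusted p of 0.9997. It was the only carrier at an unadjusted p under 0.05 in all 16 settings run, with log2 folds from -3.13 without Dep 3 to -1.64 without Dep 2. These settings refit the same embryos, and the gene was chosen by its p in the main fit, so they are no separate evidence. The authors' deposited table gives Slc38a11 a log2 fold of -1.90 and an adjusted p of 0.9999.

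Among the other lower genes, Slc12a2, the sodium-potassium-chloride cotransporter, had 1204, 1248 and 763 (Ctl 1 to 3) and 297, 665 and 587 (Dep 1 to 3) normalized counts. The lowest was Dep 1, at less than any Ctl embryo, and Dep 2 and Dep 3 lay below Ctl 3 as well. Its log2 fold was -1.10 ± 0.39 (SE) (limma, unadjusted p = 0.0175) and -0.74 without Dep 1. Slc6a12, which takes up betaine and GABA, had 153, 88.5 and 162 (Ctl 1 to 3) and 7.28, 31.8 and 52.2 (Dep 1 to 3) normalized counts, with a log2 fold of -2.42 ± 0.90 (SE) and an unadjusted limma p of 0.0216. All 3 Dep values were below the Ctl values, and at this level Dep 1 rests on few reads.

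Among the zinc transporters of the Slc30 family, which move zinc out of the cytosol, 3 of 7 listed members had all Dep values below all Ctl values, as did 3.80% of all genes. The family was picked out after these values were seen, so the count is no separate evidence. Slc30a1, the exporter at the plasma membrane, had 1402, 1029 and 1455 (Ctl 1 to 3) and 752, 735 and 777 (Dep 1 to 3) normalized counts. The 3 Dep embryos were close to each other and below every Ctl embryo. Its means were 1296 ± 232 for the Ctl embryos and 754 ± 21.2 for the Dep embryos (SD, n = 3 each), and its log2 fold was -0.76 ± 0.28 (SE) with an unadjusted limma p of 0.0222. Slc30a2, which fills vesicles with zinc, had 543, 508 and 528 (Ctl 1 to 3) and 301, 339.6 and 401 (Dep 1 to 3) normalized counts and a log2 fold of -0.61 ± 0.34 (SE) (unadjusted p = 0.102). Slc30a5, which loads zinc into the secretory pathway and is named here after its values were seen, had 1285, 1396 and 1079 (Ctl 1 to 3) and 907, 818 and 1012 (Dep 1 to 3) normalized counts and a log2 fold of -0.46 ± 0.28 (SE) (unadjusted p = 0.129). The family median was -0.25 with 5 of 7 log2 folds below zero, and it was negative under each scaling tried, from -0.46 with library weights to -0.21 with edgeR. For the zinc importers of the Slc39 family, 7 of 11 had a log2 fold above zero, the median was 0.04, and no member was free of overlap.

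Slc22a23 and Slc25a13 also had lower values. Slc22a23, of the organic ion transporter family, had 736, 872 and 970.0 (Ctl 1 to 3) and 592, 407 and 578 (Dep 1 to 3) normalized counts, with no overlap and a log2 fold of -0.72 ± 0.32 (SE) (limma, unadjusted p = 0.0469). Slc25a13, the mitochondrial aspartate-glutamate carrier of the malate-aspartate shuttle, had 1497, 1438 and 1576 (Ctl 1 to 3) and 526, 1116 and 1442 (Dep 1 to 3) normalized counts. Dep 3 lay within the Ctl range, and the log2 fold of -0.67 was -0.24 without Dep 1.

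Of the 8 higher carriers, the mitochondrial ones were Slc25a11 and Slc25a10. Slc25a11, the oxoglutarate-malate carrier, had 2081, 2082 and 1614 (Ctl 1 to 3) and 3181, 3947 and 2312 (Dep 1 to 3) normalized counts. All Dep embryos were above all Ctl embryos, with means of 1926 ± 269.8 for the Ctl embryos and 3147 ± 818 for the Dep embryos (SD, n = 3 each). The log2 fold was 0.68 ± 0.28 (SE), with an unadjusted limma p of 0.0360. Slc25a10, which exchanges malate and succinate for phosphate, had 1044, 1946 and 1609.8 (Ctl 1 to 3) and 2335, 2203 and 2113 (Dep 1 to 3) normalized counts. Its Dep values lay close together above the Ctl values, with a log2 fold of 0.58 ± 0.29 (SE) (unadjusted p = 0.0772) that was 0.32 without Ctl 1. Slc13a2, which brings succinate and citrate into cells with sodium, had 135, 362 and 122 (Ctl 1 to 3) and 478, 299.9 and 645 (Dep 1 to 3) normalized counts. The groups overlapped through Ctl 2 and Dep 2, and the log2 fold was 1.31 ± 0.53 (SE) with an unadjusted limma p of 0.0309. An antisense gene, Slc13a2os, overlaps it, and Gm11788 lies antisense to Slc25a10; their reads cannot be told apart without strand.

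Other carriers with higher values came from several classes. Slc46a1, the folate transporter, had 2319, 3346 and 2062 (Ctl 1 to 3) and 2993, 5260.2 and 3014 (Dep 1 to 3) normalized counts. Dep 2 was far above the other 5 embryos, and Dep 1 and Dep 3 lay within the Ctl range, with a log2 fold of 0.52 (unadjusted p = 0.127) that was 0.25 without Dep 2. Each Dep embryo was above the Ctl embryo of its number, and with the replicate block the unadjusted limma p was 0.0286. The labels give no such pairing, and it was read from these same data, so this p is no separate evidence. Slc37a4, which carries glucose phosphate into the endoplasmic reticulum, had 115, 144 and 194 (Ctl 1 to 3) and 467, 195 and 217 (Dep 1 to 3) normalized counts. Dep 2 and Dep 3 were barely above Ctl 3, and without Dep 1 the log2 fold of 0.87 was 0.47. Slc16a5, of the monocarboxylate transporter family, had 143, 159 and 85.6 (Ctl 1 to 3) and 176, 356 and 193 (Dep 1 to 3) normalized counts and a log2 fold of 0.87, without overlap.

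Slc12a9 and Slc10a6 had the widest folds of the higher group at very low counts. Slc12a9, of the cation-chloride cotransporter family, had 11.8, 21.7 and 17.7 (Ctl 1 to 3) and 110.5, 56.6 and 39.6 (Dep 1 to 3) normalized counts, without overlap, and a log2 fold of 1.86 ± 0.97 (SE) (unadjusted p = 0.0830). Slc10a6, a carrier of sulfated steroids, had 3.55, 182 and 0 (Ctl 1 to 3) and 99.6, 106 and 50.6 (Dep 1 to 3) normalized counts. Its highest value was that of Ctl 2, and Ctl 1 was at the level of 3 reads. The log2 fold of 3.13 depends on how low values are treated, since edgeR gave 0.46, and on single embryos, since it was 5.27 without Ctl 2 and 1.51 without Ctl 3.

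**Figure D3:**
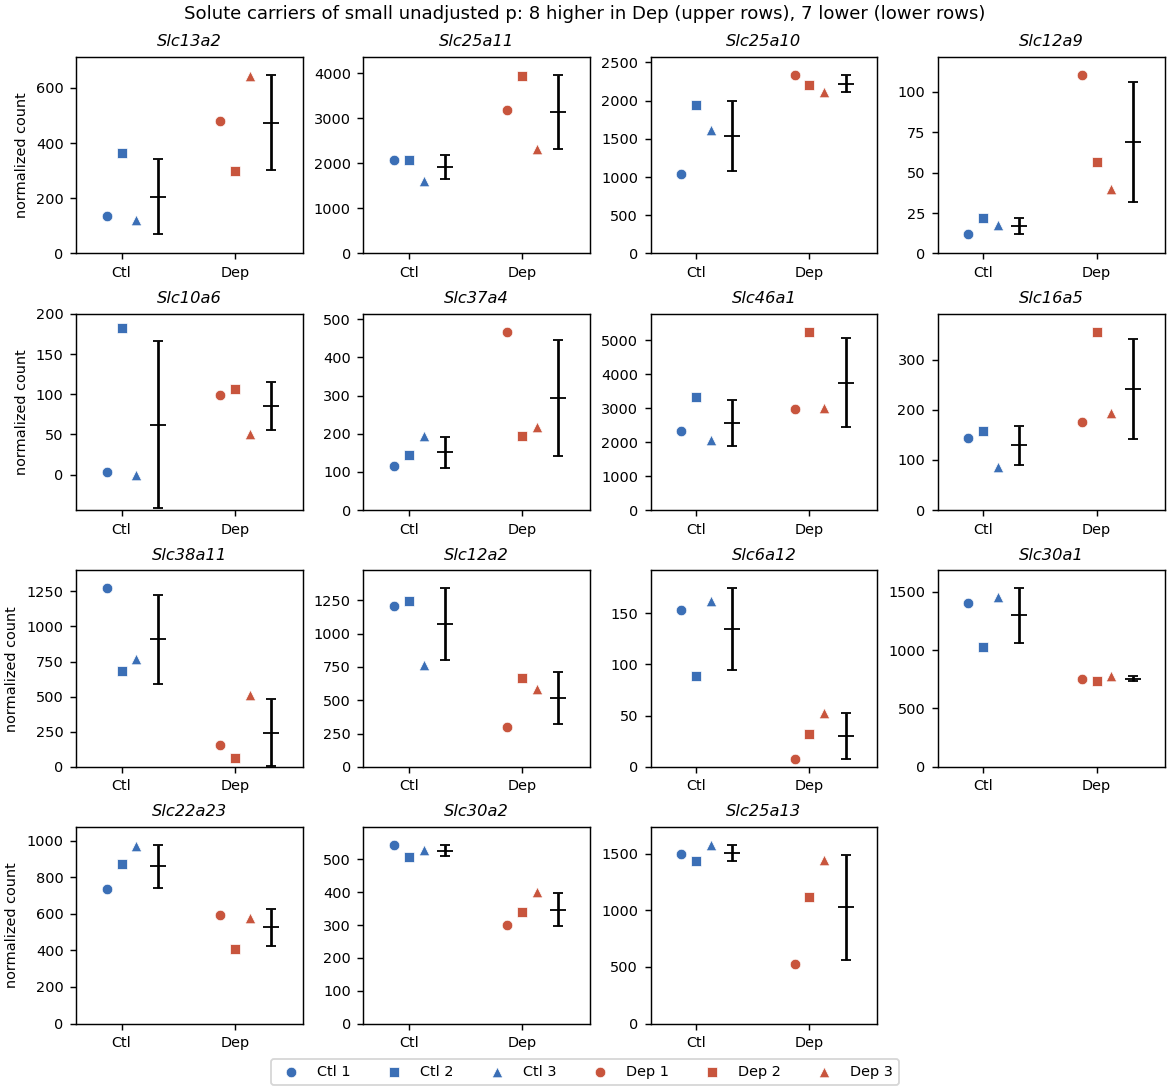
Normalized counts of the 8 carriers higher in Dep (upper rows) and 7 lower in Dep (lower rows) among those of smallest unadjusted p, with 1 point per embryo and bars for mean ± SD (n = 3 each). Slc38a11, Slc30a1, Slc30a2 and Slc25a11 show no overlap of the groups, while Slc10a6, Slc13a2, Slc25a13 and Slc46a1 do overlap.

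Described by class, the carriers gave medians on both sides of zero. The median log2 fold of the 31 amino acid and peptide carriers was -0.11 (11 higher, 20 lower), of the 39 mitochondrial carriers -0.09 (15 higher, 24 lower) and of the 26 inorganic ion carriers -0.18 (11 higher, 15 lower). Carriers of monocarboxylates, nucleosides, lipids and organic ions had -0.13 (13 higher, 22 lower). Sugar and polyol carriers had -0.13 (3 higher, 6 lower), metal carriers 0.00 (13 higher, 12 lower) and nucleotide sugar carriers 0.16 (6 higher, 4 lower). The 10 vitamin and cofactor carriers had the highest median, 0.36, with 6 higher and none at an unadjusted p under 0.05. Without Dep 1, the amino acid median became 0.12, the inorganic ion median 0.20, the sugar median 0.08, the monocarboxylate class median 0.07, the metal median 0.13 and the nucleotide sugar median 0.04. The mitochondrial median stayed at -0.09 without Dep 1 and was 0.08 with edgeR. The vitamin median was positive under each scaling tried, from 0.36 to 0.52, and was 0.48 without Dep 1. The Slc6 family of neurotransmitter, osmolyte and amino acid carriers had a median of -0.25 with 5 of 6 lower, and its median stayed negative under the same alternatives. So did that of Slc30, described above, and that of Slc7, at -0.65 with 4 of 6 lower and -0.01 without Dep 1. Among the other larger families, the medians of Slc16, Slc35 and Slc39 stayed positive. Those of Slc4, Slc12, Slc22, Slc25 and Slc38 changed sign.

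**Figure D4:**
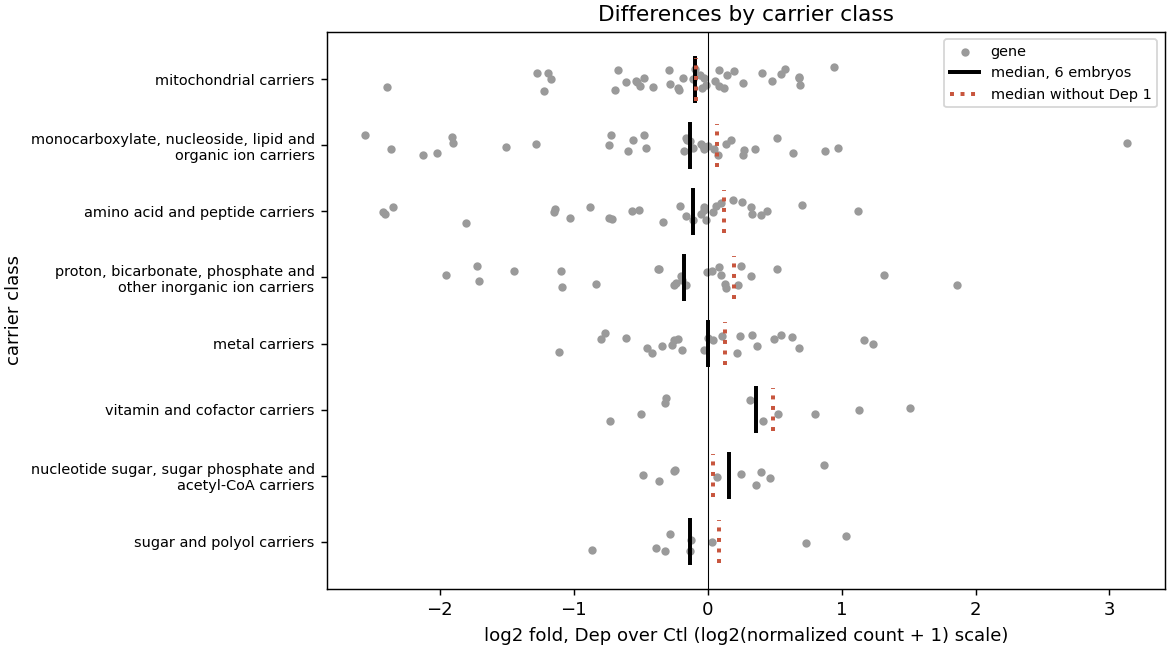
Log2 fold of Dep over Ctl for each carrier (grey points, with a vertical offset inside each class only for legibility) in 8 classes, with the class median over 6 embryos (black bar) and without Dep 1 (dotted red bar). The medians lie between -0.18 and 0.36, and those of 4 classes are on the other side of zero without Dep 1.

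Dep 1 held the lowest value of the 6 embryos for 80 of 185 carriers (43.2%), beside 29.2% of all listed genes, and the highest for 30 (16.2%), beside 24.3%. On the log2 scale its median carrier lay 0.37 under the mean of the 6 embryos, while that of the other 5 embryos lay between 0.01 and 0.27 above. The median over all genes was -0.02 in Dep 1. No read was found in Dep 1 for 19 carriers (10.3%, beside 5.69% of all genes), and 17 of these had reads in each other embryo. A count of 0 there allows up to 3 reads, or 3.64 normalized counts, for counting error only. Carriers lie lower than all genes, with a median mean level of 308 beside 477 normalized counts. The part of this level in the number of zeros was not tested, and the 17 have no share over all genes beside them. The 19 included Slc25a41 and Slc22a7, and, named after their values were seen, Slc25a42, Slc25a48, Slc43a2, Slc4a5 and the heme transporter Slc48a1. Whether the library or the embryo sets these low values was not tested.

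**Figure D5:**
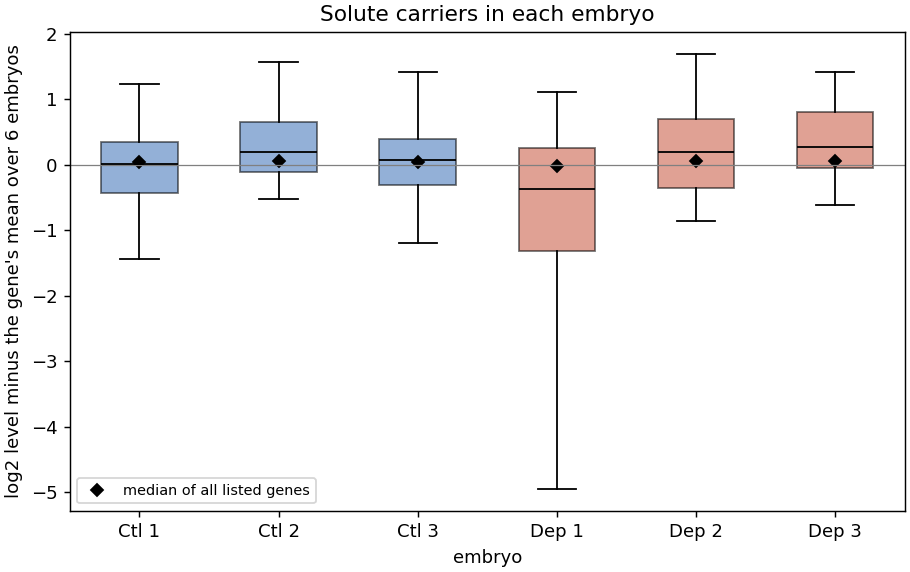
Deviation of each carrier from its mean over 6 embryos on the log2 scale, shown per embryo as boxes (quartiles with the median as a line, whiskers from the 5th to the 95th percentile of 185 carriers) and black diamonds for the median of all listed genes. The box of Dep 1 lies lowest and reaches farthest down, with a median of -0.37, while its diamond stays near zero at -0.02.

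Members lowest in Dep 1 numbered 15 of 26 among the inorganic ion carriers, 16 of 31 among the amino acid carriers, 15 of 39 among the mitochondrial carriers and 10 of 25 among the metal carriers. They numbered 15 of 35 in the monocarboxylate and organic ion class and 4 of 9 among the sugar carriers. The vitamin carriers had 3 of 10 and the nucleotide sugar carriers 2 of 10. Of all listed genes, 29.2% were lowest in Dep 1. Amino acid carriers are given as examples. Slc7a5, which imports large neutral amino acids as the partner of Slc3a2, had 183, 288 and 273 (Ctl 1 to 3) and 7.28, 367 and 447 (Dep 1 to 3) normalized counts. Slc38a2, a sodium-coupled importer of small neutral amino acids, had 389, 382 and 173 (Ctl 1 to 3) and 20.6, 790.5 and 517 (Dep 1 to 3) normalized counts. Slc7a1, a carrier of cationic amino acids that was chosen after its values were seen, had 127, 188 and 279.8 (Ctl 1 to 3) and 3.64, 186 and 182 (Dep 1 to 3) normalized counts. All 3 were lowest in Dep 1, while in Dep 2 and Dep 3 the values of Slc7a5 and Slc38a2 lay above every Ctl embryo and those of Slc7a1 within the Ctl range. Slc1a5, which exchanges glutamine for other neutral amino acids, had 280.5, 416 and 271 (Ctl 1 to 3) and 49.8, 295 and 339 (Dep 1 to 3) normalized counts, again lowest in Dep 1. In contrast Slc3a2 was not low in that embryo, with 2142, 3048 and 1728 (Ctl 1 to 3) and 2148, 3884 and 2008 (Dep 1 to 3) normalized counts. Neither was Slc7a6, with 3536, 3228 and 2961 (Ctl 1 to 3) and 3898, 2646 and 4014 (Dep 1 to 3).

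Of 18 carriers listed from earlier knowledge of the mouse embryo, 13 were in the table, and Slc2a2, Slc5a1, Slc6a9, Slc9a3 and Slc23a1 were not analysed here. Of the 13, 3 had a log2 fold above zero and 10 one below, with a median of -0.34 and none at an unadjusted p under 0.05. These are folds of mean log2 levels, in which a low value in 1 embryo weighs more than in a mean of counts. Besides those already described they were mainly amino acid, phosphate, glucose and vitamin carriers. Slc1a1, a glutamate and aspartate importer, had 2378, 2703 and 2212 (Ctl 1 to 3) and 1607, 3161 and 2661 (Dep 1 to 3) normalized counts. Slc6a6, the taurine transporter, had 1633, 1101 and 1415 (Ctl 1 to 3) and 869, 996 and 1463 (Dep 1 to 3), and Slc34a2, a phosphate importer of epithelia, had 2079, 1542 and 2407 (Ctl 1 to 3) and 1667, 1335 and 2127 (Dep 1 to 3). The groups overlapped for all 3.

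Slc2a8, a glucose transporter of inner membranes, had 897, 1185 and 1079 (Ctl 1 to 3) and 259, 1650.4 and 1506 (Dep 1 to 3) normalized counts. Dep 2 and Dep 3 lay above every control and Dep 1 far below. Slc23a2, which takes up ascorbate, had 429.6, 466 and 607 (Ctl 1 to 3) and 136, 710.0 and 447 (Dep 1 to 3), again lowest in Dep 1. Slc7a8, a light chain for neutral amino acids, stayed at or under 98.0 normalized counts in every embryo.

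The table lists 9 carriers on the X chromosome, of which Slc25a5, Slc6a8 and Slc6a14 had the highest levels. Slc6a14, a broad sodium- and chloride-coupled amino acid importer, had 1699.5, 1457 and 982 (Ctl 1 to 3) and 2038, 309.8 and 453 (Dep 1 to 3) normalized counts. Dep 1 was the highest of the 6 and Dep 2 and Dep 3 were the lowest, so its log2 fold of -1.03 ± 0.60 (SE) rests on embryos that differ within the group. The median deviation of the 9 genes on the log2 scale was 0.04, 0.04 and 0.06 (Ctl 1 to 3) and 0.30, 0.38 and -0.48 (Dep 1 to 3). Xist, whose RNA covers a silenced X chromosome, had 10312, 5518 and 874 (Ctl 1 to 3) and 151, 3784 and 5589 (Dep 1 to 3) normalized counts. Ddx3y, a gene of the Y chromosome, had 1.18, 1160 and 2202 (Ctl 1 to 3) and 1424, 266 and 1141 (Dep 1 to 3). Only in Ctl 1 was Ddx3y near 0, while Xist had counts in every embryo. In Ctl 2, Ctl 3, Dep 2 and Dep 3 both genes had 266 normalized counts or more, so these values do not settle the sex of each embryo. The part of sex and X dosage in these values was not tested.

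How far embryos of 1 group lay apart differed between carriers. The median SD within groups of the log2 level was 0.66 for the carriers and 0.54 for all listed genes, and the carriers' median mean level was 308 normalized counts beside 477 for all genes. The widest were Slc4a8, a sodium-coupled bicarbonate exchanger, Slc22a7, an organic anion carrier, Slc25a41, a mitochondrial ATP-magnesium carrier, and Slc6a15, a neutral amino acid carrier of neurons. Slc25a41 had 50.9, 106 and 133 (Ctl 1 to 3) and 0, 338 and 173 (Dep 1 to 3) normalized counts, and Slc22a7 had 122, 179.5 and 8.83 (Ctl 1 to 3) and 0, 202 and 73.3 (Dep 1 to 3). Both were at 0 in Dep 1 and at their highest in Dep 2. Slc4a8 had 8.28, 126 and 205 (Ctl 1 to 3) and 0, 212 and 117 (Dep 1 to 3) normalized counts and Slc6a15 0, 30.9 and 47.7 (Ctl 1 to 3) and 0, 79.4 and 32.02 (Dep 1 to 3). Both were at 0 in Dep 1, and in Ctl 1 they were low or at 0 as well.

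Slc25a1, which exports citrate from mitochondria for lipid synthesis, was chosen after its values were seen, since it passed an unadjusted p of 0.05 in 3 of 16 settings (DESeq2, library weights and without Dep 1). It had 331, 220.4 and 473 (Ctl 1 to 3) and 152, 1409 and 1145 (Dep 1 to 3) normalized counts. Dep 2 and Dep 3 were above every Ctl embryo and Dep 1 was below them all, and the log2 fold over all 6 was 0.94 ± 0.74 (SE) (limma, unadjusted p = 0.231).

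Partner proteins and related transporters outside the naming rule formed a list of 23 genes, of which 22 were in the table. Of these, 13 had a log2 fold above zero and 9 one below, the median was 0.13 and none had an unadjusted p under 0.05. Bsg, the chaperone that takes monocarboxylate transporters to the cell surface, was the most abundant at 562 FPKM, above the mean FPKM of each of the 185 carriers. Vdac1 (168 FPKM) and Vdac2 (75.04 FPKM) encode channels of the outer mitochondrial membrane through which the nucleotides of Slc25a5 and Slc25a4 pass. Slc9a3r1, a scaffold for transporters under the apical membrane, had 101 FPKM, and Atp1b1, a subunit of the sodium pump whose gradient drives the sodium-coupled carriers, had 74.5 FPKM. Laptm4b, a lysosomal protein that binds the Slc3a2 and Slc7a5 pair, had 69.97 FPKM. Bsg had 16339.8, 23739 and 13209.5 (Ctl 1 to 3) and 18853, 25083 and 15073 (Dep 1 to 3) normalized counts, with overlapping groups.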

How the data were processed

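Messenger RNA of 6 single blastocysts, 3 per group, was amplified with a low-input kit that does not mark strand, per the labels' protocols. HISAT2, Cufflinks 2.2.1 and mm10 are named in the submitters' processing notes without their roles, and how reads were counted, and on which gene models, is not given in the sources used here. For every gene the deposited table holds a signal value in each library, by its values a normalized read count. Per the file headers it also holds a mean, the authors' log2 fold with its error, a test statistic (a score) and raw and adjusted p-values. Values were whole multiples of 1 step per library (100% within 0.01 reads), which gave back the reads. The Dep 2 step of 0.993 cannot be told from 1 by this check alone and was read like the others. DESeq2 on these reads gave the members' deposited log2 folds within 5e-10. The lowest mean listed was 14.2 normalized counts, and 20.8 among carriers, so rarer genes were left out before deposit. Reads are not independent molecules, so floors cover counting error only.

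Identifiers were matched to GENCODE M21 (GRCm38): 11829 of 12149 matched. FPKM used recovered reads, reads in listed genes and the union of annotated exons. Carriers were placed in classes by family. limma 3.58.1 with a mean-variance trend was fitted to log2(normalized count + 1) over all listed genes, Dep against Ctl, with no covariate, Benjamini-Hochberg adjustment and a threshold of 0.05. Folds of low genes on this scale can be larger or smaller than on recovered reads. For 7 measures of an embryo, such as the share of reads in carriers, a two-sided exact permutation test was run, each with an adjusted p of 1. Alternatives were pseudocounts of 8 and 0.5, a minimum mean of 100, TMM and quantile scaling, library weights, the replicate number as a block, each embryo left out, and on recovered reads DESeq2 1.42.0 and the quasi-likelihood test of edgeR 4.0.16. R was 4.3.3 and Python 3.11.15. The fit was tested on simulated data with 200 changed genes.

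Carriers, classes and gene lists were chosen with earlier results of these data known. Named were the 20 of highest mean FPKM, the 8 higher and the 8 lower of smallest unadjusted p, the 4 of largest SD within groups, the list of known embryo carriers, the 3 highest X-linked ones, the 6 highest partners and the 3 highest of each class; carriers named outside this rule were chosen after their values were seen, and a few carriers under the rule are not reported here. Embryos 1, 2 and 3 of 1 group deviated from their group mean weakly like their namesakes of the other (r = 0.133, 0.151 and 0.129 across genes). Deviations in a group of 3 are tied to each other, so some matching of the numbers tends to give positive r. These values therefore cannot show that the embryos were paired. Pairing by number was used only as an alternative, and it rests on the data and not on the labels.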

Additional observations from a re-analysis of the deposited data

How the results depend on the processing

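The number of carriers past an adjusted p of 0.05 was 0 in each of 15 alternatives. The number at an unadjusted p under 0.05, 7 as reported, ran from 6 to 9 under other pseudocounts, scalings, weights and tools. The share of all genes there ran from 1.74% with edgeR to 3.28% with library weights, which gave 9 carriers (4.86%). With 1 embryo left out the number of carriers ran from 1 without Ctl 1 to 15 without Dep 1. All genes gave 1.004% and 3.90% in those 2 fits. Fits with an embryo left out hold fewer samples. The replicate block gave 9 carriers (4.86%), beside 420 of all genes (3.46%), and 0 past the adjusted threshold, so pairing the embryos changed no call. The median log2 fold ran from -0.22 without Dep 3 to 0.11 without Dep 1. Of the named genes, Slc38a11 stayed under 0.05 in all 16 settings, Slc12a2 and Slc30a1 in 14, Slc6a12 in 13, Slc13a2 in 12, Slc25a11 in 11 and Slc22a23 in 10, and no fold of these changed sign. All settings refit the same embryos, and these genes were chosen by their p in the main fit. The minimum mean of 100 left 138 carriers and could give no value for Slc6a12, Slc12a9 and Slc10a6, whose few reads limit their precision.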

Other observations

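Transporters named outside the plain family and member pattern were looked at in the same fit. Of 24 listed genes of this kind, 10 had a log2 fold above zero and 14 one below, with a median of -0.17. None passed the adjusted threshold and 1 had an unadjusted p under 0.05 in limma, beside 1.85% of all listed genes. That was Slc51a, a subunit of the organic solute and steroid transporter, with 334, 222 and 155 (Ctl 1 to 3) and 59.5, 167 and 61.5 (Dep 1 to 3) normalized counts, a log2 fold of -1.40 ± 0.61 (SE) and an unadjusted p of 0.0440. Ctl 3 lay below Dep 2, so the groups overlapped. Its partner subunit Slc51b had 118, 57.6 and 27.4 (Ctl 1 to 3) and 63.1, 17.9 and 43.8 (Dep 1 to 3) normalized counts, with Ctl 1 highest.

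The most abundant of these genes was Slc35b1, which brings ATP into the endoplasmic reticulum, at 83.96 FPKM. It had 3103, 3303 and 2104 (Ctl 1 to 3) and 3909, 6313 and 2009 (Dep 1 to 3) normalized counts, and the highest and the lowest value were both in Dep embryos. Slc35b2, a carrier of the sulfate donor into the Golgi apparatus, had 25.8 FPKM, and Slc35f2 24.99 FPKM. The partner gene Ctns, which exports cystine from lysosomes, had 181, 80.99 and 265 (Ctl 1 to 3) and 0, 208 and 272 (Dep 1 to 3) normalized counts, at 0 in Dep 1 alone.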
